A study of Mus musculus with 6 samples.

Results

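The data described here concern 10 genes of bone mineral formation among the 52081 genes that all 6 libraries list. They were chosen by symbol as the phosphoproteins of the bone matrix (Spp1, Ibsp, Dmp1 and Mepe), the endopeptidase Phex, the osteocalcin genes Bglap and Bglap2, and the enzymes Alpl, Enpp1 and Phospho1, and all 10 were found in every library. Callus was taken 14 days after a femoral fracture and its dissociated cells were sequenced one by one from the 3′ end of transcripts, with reads counted as unique molecular identifiers (UMIs). The control group (labelled wt, and described in the methods of the study as Piezo1 f/f) and the knockout group (labelled Col2CreERT; Piezo3-/-, with Piezo1-/- in the series design, and described as Col2a1CreERT2; Piezo1 f/f) held 3 libraries each. All mice were 12 weeks old and, per the methods, male, and controls and knockouts alike were given tamoxifen, 75 mg/kg a day for 5 days beginning on day 5. Col2CreERT acts in cells that express Col2a1, so deletion is directed at cartilage cells and at cells that had expressed Col2a1 when tamoxifen was given.

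Mineral forms in cartilage and bone when phosphate is freed inside matrix vesicles and crystals then grow along collagen. Tissue-nonspecific alkaline phosphatase, encoded by Alpl, removes pyrophosphate, an inhibitor of mineral that ENPP1 makes from ATP, and PHOSPHO1 frees phosphate inside the vesicle. Bone sialoprotein (Ibsp), osteopontin (Spp1) and dentin matrix protein 1 (Dmp1) are acidic proteins that bind mineral. MEPE is a further phosphoprotein of the bone matrix, PHEX cuts MEPE and osteopontin peptides, and osteocalcin (Bglap) marks mature osteoblasts. In a healing fracture, hypertrophic chondrocytes (HTCs) mineralize cartilage before osteoblasts lay down bone, and osteocytes are the cells that the bone encloses.

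After filters and removal of doublets 41705 cells remained, from 3068 to 10046 per library, and total counts ran from 57626530 to 103784364 UMIs. Cells were clustered without the 10 genes and named from marker genes. Of the classes used here, 620 cells were HTC-like, 3295 chondrocyte-like, 1538 osteoprogenitor-like, 2115 osteoblast-like, 381 osteocyte-like, 1646 osteoclast-like and 4182 neutrophil-like. The leading genes of HTC-like cells included Ihh and Pank1. Col10a1, a marker used for the name, was at a mean of 29732 CPM (UMI counts scaled to a total of 1000000), against 4818 in chondrocyte-like cells. Its levels ran from 9234 (control 3) to 58736 (control 2) in HTC-like cells and from 1662 to 8520 in chondrocyte-like cells. The osteocyte-like class was named from Dkk1, Ptprz1, Pdpn and 5 further markers, while Sost, a defining gene of mature osteocytes, reached a mean of 37.2 CPM, and Reln 1.3. A cluster of 549 stromal cells led by Chil1, Lcn2 and Hp stayed unnamed and is called the Chil1-led cluster.

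Some libraries stood apart. Knockout 2 gave 1355 of the 2115 osteoblast-like cells and 18 of the 3295 chondrocyte-like cells, and knockout 3 gave 424 of the 620 HTC-like cells. Knockout 1 had 8 osteocyte-like cells and was left out of that class. Knockout 3 held Xist UMIs in 85.6% of cells and no Ddx3y UMI, whereas in the other 5 libraries Xist was found in at most 0.258% of cells and Ddx3y in at least 32.4%, so this library did not match the stated male sex. Pairs of libraries shared between 4 and 36 cell barcodes. Piezo1 (ENSMUSG00000014444, chromosome 8, 122481698 to 122551329), summed over HTC-like and chondrocyte-like cells, was at 68.0, 44.1 and 54.6 CPM in controls 1 to 3 and at 135, 48.6 and 47.4 in knockouts 1 to 3, which gave 0.51 on the log2 scale, knockout minus control (SE 0.39; edgeR adjusted p = 1.0), and -0.12 without knockout 1. A 3′ tag can also be counted from a transcript that has lost exons elsewhere, and which exons are floxed is not given in the sources used here. This value therefore does not check the deletion, and the groups are named by their labels.

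A level here is in CPM, the UMI count of a gene scaled to 1000000 UMIs of the class in a library, and a class needed at least 10 cells in a library to give one. These counts are of transcripts and were not divided by length. The groups of a class can hold fewer cells or less RNA per cell. The scaling takes this out of a level, except for UMIs that come from free RNA, but not out of a share of UMIs. Free RNA gives UMIs in cells that do not express a gene, and the level of neutrophil-like cells, which are not known to make the bone matrix proteins, is given beside the levels as a reference in each library. It is not taken as the level of free RNA for Alpl, whose product is also known as neutrophil alkaline phosphatase, or for Phospho1, whose level was at the median lower in the other blood and vessel classes. The median cell had 2141 UMIs in neutrophil-like, 15671 in osteoclast-like and 20062 in HTC-like cells. The part that free RNA makes up of a cell's UMIs can therefore differ between classes, and it was not measured. Of the 70 neighbouring pairs in the orders of the 10 genes over 8 classes, compared within libraries by two-sided exact permutation of signs, 0 had an adjusted p under 0.05, and the smallest p that 6 libraries allow is 0.0312 (0.0625 with 5). The smallest adjusted p was 0.168, so orders are given with the number of libraries that show them.

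**Figure D1:**
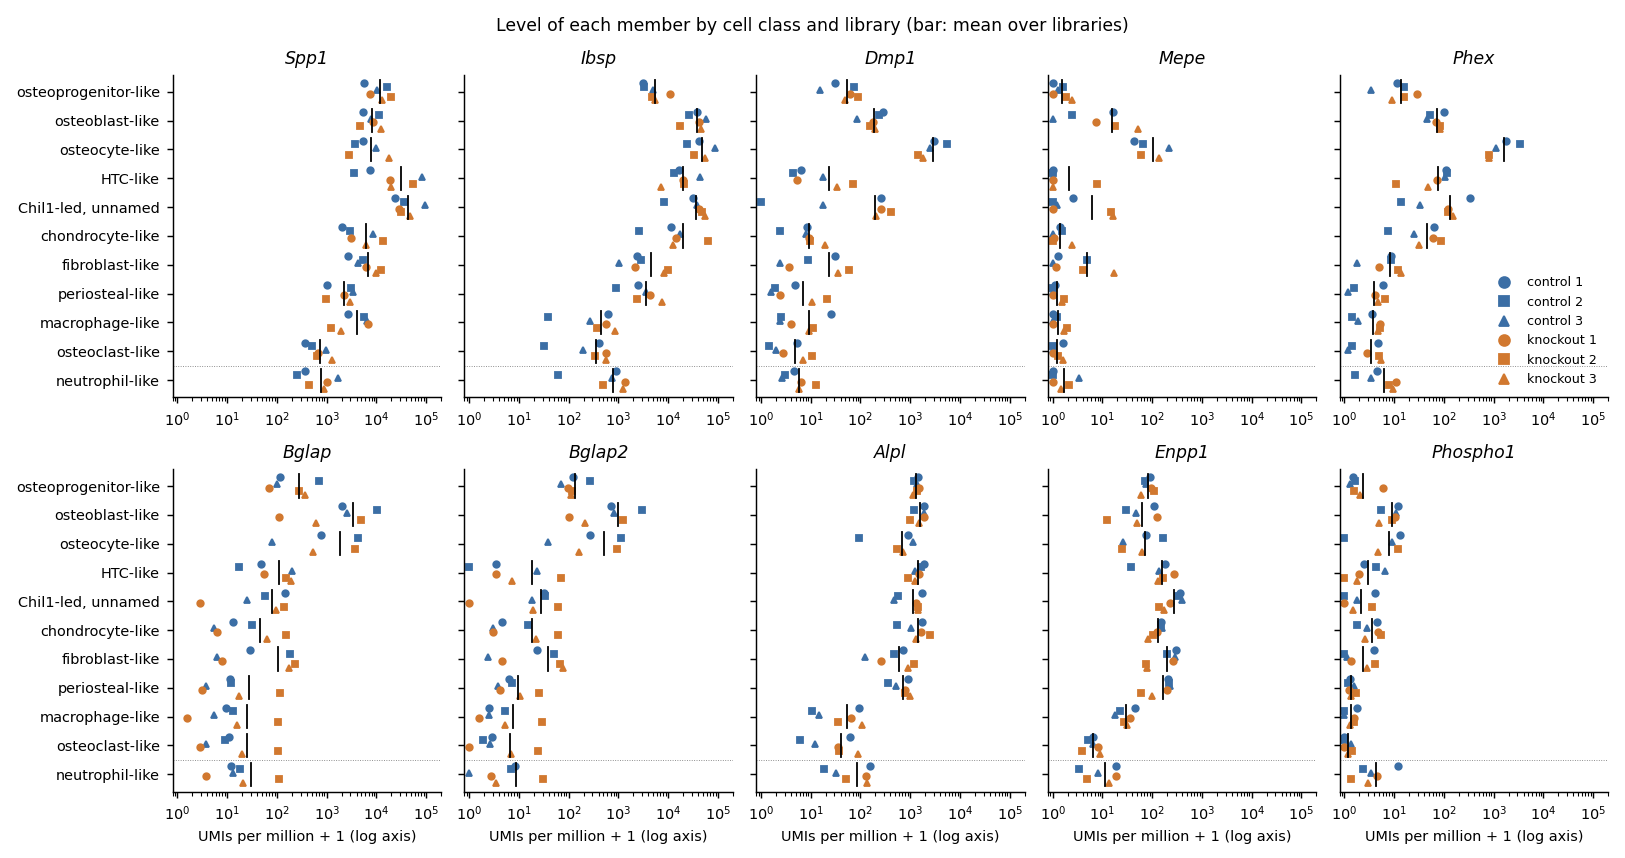
Each panel plots 1 gene, with the level in CPM plus 1 on a log axis and cell classes as rows. Each point is 1 of 6 libraries (blue, control; orange, knockout), the bar is the mean over libraries, and neutrophil-like cells stand at the bottom. Dmp1, Mepe and Phex lie farthest to the right in osteocyte-like cells and Bglap and Bglap2 in osteoblast-like cells, while Alpl lies between 92.3 and 2452 in all 5 named skeletal classes.

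Spp1 (ENSMUSG00000029304, chromosome 5, 104435118 to 104441050, GRCm38) encodes osteopontin, which coats mineral surfaces. In HTC-like cells it was at 7342, 3595 and 83141 CPM in controls 1 to 3 and at 18551, 54358 and 20076 in knockouts 1 to 3. The lowest value came from 16 cells, 2 of which held 85.8% of its UMIs, and the highest from 15 cells, so the control values alone spanned the values of both groups. Osteoprogenitor-like cells followed at 12031 ± 5177 (SD, n = 6) then osteoblast-like cells at 8303 ± 3013 and osteocyte-like cells at 7924 ± 6059 (n = 5). HTC-like cells were above osteoprogenitor-like cells in 5 of 6 libraries, by a mean of 0.77 on the log2 scale (exact p = 0.344, adjusted p = 0.573). The highest mean of all classes was in the Chil1-led cluster, at 43636, where the libraries lay between 23224 and 96475.

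Outside the skeletal classes, Spp1 stood above the neutrophil-like level of the same library in macrophage-like cells of all 6 libraries. Macrophages are a known source of osteopontin, and here they held 2740, 5621 and 6511 CPM in controls 1 to 3 and 6898, 1207 and 1925 in knockouts 1 to 3, at the median 5.33 times the neutrophil-like level. Osteoclast-like cells, which resorb bone, held 744 ± 337 (SD, n = 6), at the median 1.23 times the neutrophil-like level and above it in 4 of 6 libraries. The median was below 1 in these cells for each of the other 9 members, among them Bglap (0.80), Phex (0.54), Ibsp (0.45) and Alpl (0.38). Neutrophil-like cells had 364, 248, 1661, 1023, 444 and 899, in the same order of libraries. With each cell thinned to 500 UMIs, a Spp1 UMI was expected, as a mean over libraries, in 30.9% of neutrophil-like cells and in 31.3% of osteoclast-like cells, against 78.6% of HTC-like cells. Without thinning the shares were 78.3%, 92.7% and 96.9%, and the median depth of a library's cells was 1435 to 5271, 2342 to 33090.5 and 14283 to 43087 UMIs in these 3 classes.

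Ibsp (ENSMUSG00000029306, chromosome 5, 104299171 to 104311469) encodes bone sialoprotein, a nucleator of mineral. Osteocyte-like cells held 41365, 23935 and 88651 CPM in controls 1 to 3 and 33618 and 55082 in knockouts 2 and 3. Osteoblast-like cells held 37960, 26132 and 57337 in controls and 41613, 17653 and 45600 in knockouts 1 to 3. The groups overlapped in both classes, and the means were 48530 ± 25156 (SD, n = 5) in osteocyte-like and 37716 ± 14136 (n = 6) in osteoblast-like cells, with osteocyte-like cells higher in 4 of 5 libraries (exact p = 0.188, adjusted p = 0.345). HTC-like cells (20134 ± 12686, SD, n = 6) and chondrocyte-like cells (20049 ± 21340) followed at means that differed by less than their spread (exact p = 0.562, adjusted p = 0.756). The chondrocyte-like spread rested on knockout 2, at 62487 from 18 cells, against 2643 to 16938 in the other libraries. Osteoprogenitor-like cells were lower, at 5450 ± 2936, and below chondrocyte-like cells in 5 of 6 libraries (exact p = 0.0625, adjusted p = 0.168).

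The Ibsp levels of cartilage cells stood well above those of neutrophil-like cells. Neutrophil-like cells held 911, 61.2 and 745 CPM in controls and 1327, 485 and 1228 in knockout-labelled libraries, and HTC-like cells were above them in all 6 libraries, at the median 30.2-fold. In osteoclast-like cells Ibsp was lower than in neutrophil-like cells in all 6 libraries, at the median 0.45 times their level. After thinning to 500 UMIs, an Ibsp UMI was expected in 98.3% to 99.6% of a library's osteocyte-like cells and, as means, in 93.2% of osteoblast-like, 79.7% of HTC-like and 56.4% of osteoprogenitor-like cells, against 34.0% of neutrophil-like cells. The unthinned shares were 100%, 99.5%, 100%, 94.1% and 74.5%. The Chil1-led cluster held Ibsp at 36991 ± 16143 CPM, a mean close to that of osteoblast-like cells. Its controls lay between 8396 and 37948 and its knockouts between 42165 and 55144, from 26 to 290 cells per library. This cluster was not tested between the genotype labels, so no share of all genes stands beside these values. They are not read as a difference between the groups.

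Dmp1 (ENSMUSG00000029307, chromosome 5, 104202613 to 104214102), Mepe (ENSMUSG00000053863, chromosome 5, 104325329 to 104338611) and Phex (ENSMUSG00000057457, chromosome X, 157162075 to 157415312) had their highest levels in osteocyte-like cells in all 5 libraries that had enough of these cells. DMP1 binds mineral in the matrix and, like PHEX, restrains the phosphate-wasting hormone FGF23, while MEPE is a source of peptides that inhibit mineral. The Dmp1 levels of osteocyte-like cells were 3025, 5457 and 2515 CPM in controls 1 to 3 and 1413 and 1781 in knockouts 2 and 3. Among the named classes osteoblast-like cells followed, with 285, 233 and 84.6 in controls and 175, 156 and 196 in knockouts, so each library with both classes had more in osteocyte-like cells, by a mean of 3.76 on the log2 scale (exact p = 0.0625, adjusted p = 0.168). The order went on to osteoprogenitor-like cells at 52.6 ± 27.6 (SD, n = 6), below osteoblast-like cells in 6 of 6 libraries, and to HTC-like cells at 22.2 ± 26.1. Chondrocyte-like cells, at 8.45 ± 5.37, were near the neutrophil-like level of 4.83 ± 3.63. The Chil1-led cluster ranged from 0 to 411, with means of 93.5 in controls and 290 in knockouts. After thinning to 500 UMIs a Dmp1 UMI was expected in 52.8% of osteocyte-like, 7.64% of osteoblast-like and 0.263% of neutrophil-like cells (88.4%, 36.4% and 1.78% unthinned).

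Phex levels in osteocyte-like cells were 1785, 3455 and 1119 CPM in controls 1 to 3 and 802 and 820 in knockouts 2 and 3. The next named classes were HTC-like cells at 76.2 ± 42.0 (SD, n = 6) and osteoblast-like cells at 71.7 ± 21.3, which did not differ beyond their spread (exact p = 0.938, adjusted p = 0.979). The unnamed Chil1-led cluster had higher means than both, at 128 ± 183 (SD, n = 3) in controls and 131 ± 17.6 in knockouts. Osteocyte-like cells were above HTC-like cells in 5 of 5 libraries, by a mean of 4.24 on the log2 scale (exact p = 0.0625, adjusted p = 0.168). Mepe levels in osteocyte-like cells were lower throughout, at 41.9, 63.2 and 212 in controls and 57.8 and 139 in knockouts 2 and 3. These rest on few cells: Mepe was found in 6.06% to 17.1% of osteocyte-like cells of a library, and in the 4 libraries with at least 20 Mepe UMIs the richest 10% of cells held at least 96.6% of them. In HTC-like cells 2 Mepe UMIs were counted in all, both in knockout 2, and the neutrophil-like mean was 0.663 CPM.

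**Figure D2:**
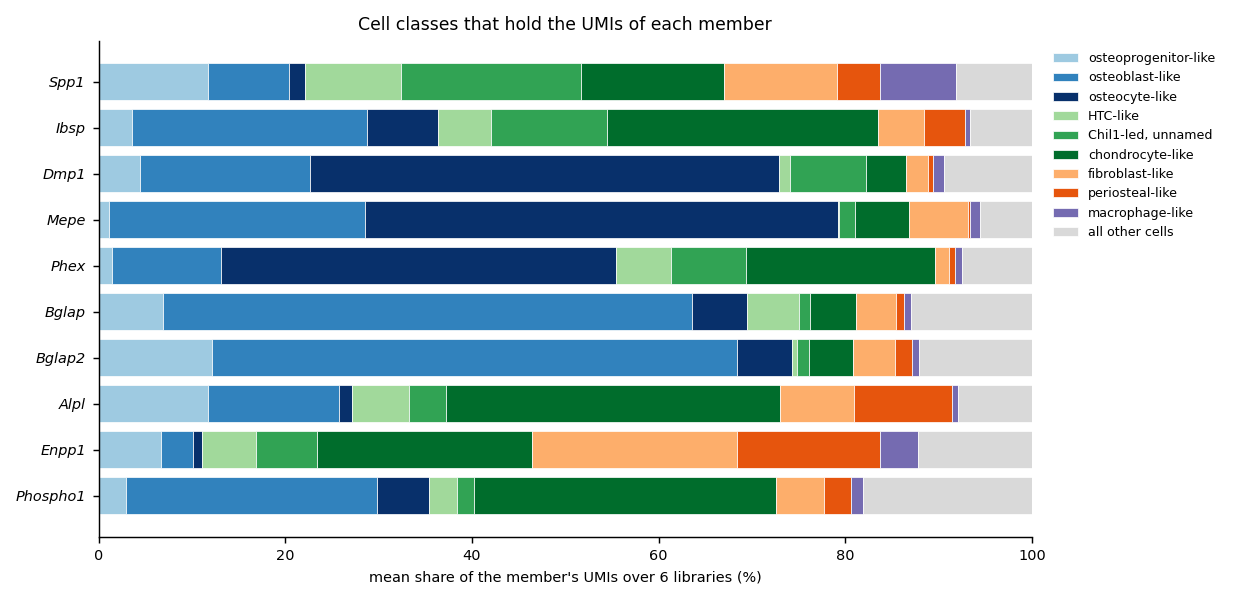
Each bar is a gene, and its colours give the share of that gene's UMIs (in percent, mean over 6 libraries) that each cell class held. Osteocyte-like cells (dark blue) held 50.2% of Dmp1, 50.7% of Mepe and 42.3% of Phex UMIs, and osteoblast-like cells 56.7% of Bglap, whereas Alpl, Ibsp and Spp1 were spread over cartilage, bone and fibroblast classes.

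The share of a gene's UMIs that a class held depends on its number of cells and their RNA as well as on the level. By this measure the 381 osteocyte-like cells held a mean of 50.2% of the Dmp1 UMIs and 42.3% of the Phex UMIs of a library, while chondrocyte-like cells held 20.2% of Phex. Osteoprogenitor-like, osteoblast-like and osteocyte-like cells together held 69.5% of the UMIs of Bglap and 74.3% of those of Bglap2. The same classes held 36.3% of Ibsp, 27.2% of Alpl, 22.1% of Spp1 and 11.1% of Enpp1. Chondrocyte-like cells alone held 35.8% of Alpl and 29.0% of Ibsp, and the Chil1-led cluster 19.3% of Spp1.

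Bglap (ENSMUSG00000074483, chromosome 3, 88383501 to 88384464, minus strand) and Bglap2 (ENSMUSG00000074486, chromosome 3, 88377736 to 88378699, minus strand) encode osteocalcin, a protein that binds calcium once its glutamates are carboxylated. They lie with Bglap3 within 15.8 kb. Their coding sequences are shown because they decide how far the counts of these genes can be told apart. The GENCODE M21 transcripts have 288 coding bases each, of which 4 differ (capitals, at the same place in each line), an identity of 98.6%.
Bglap: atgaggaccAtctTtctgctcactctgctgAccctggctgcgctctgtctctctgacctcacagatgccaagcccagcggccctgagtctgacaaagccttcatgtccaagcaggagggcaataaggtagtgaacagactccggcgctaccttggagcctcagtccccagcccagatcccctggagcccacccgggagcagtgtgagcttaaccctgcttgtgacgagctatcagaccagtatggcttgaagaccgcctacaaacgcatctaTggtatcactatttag
Bglap2: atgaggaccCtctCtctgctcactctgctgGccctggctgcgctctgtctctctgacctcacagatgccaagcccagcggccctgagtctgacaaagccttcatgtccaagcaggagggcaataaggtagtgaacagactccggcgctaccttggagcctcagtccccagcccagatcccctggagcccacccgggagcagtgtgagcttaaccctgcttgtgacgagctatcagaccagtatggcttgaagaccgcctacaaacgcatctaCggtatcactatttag
Of the 341 windows of 100 bases in the Bglap transcript, 192 (56.3%) were also in the Bglap2 transcript. The last 100 bases of the 2 transcripts, at their 3′ end, were identical. A read within a shared window matches both genes. Where the reads lay was not measured, so how many UMIs each gene received is uncertain. The sum of both is given as well, but it would not restore reads left out for matching both genes.

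Bglap had its highest mean in osteoblast-like cells, with 2061, 10227 and 2533 CPM in controls 1 to 3 and 109, 4978 and 618 in knockouts 1 to 3. Bglap2 in the same cells was at 696, 2966 and 803 in controls and at 99.8, 1241 and 207 in knockouts. Both genes ranked the 6 libraries in the same order, from control 2 down to knockout 1, and the highest Bglap level was 10227 and the lowest 109. The number of Bglap2 UMIs per Bglap UMI in osteoblast-like cells was between 0.249 and 0.338 in 5 libraries and 0.92 in knockout 1, where the counts were 137 and 126. Osteocyte-like cells followed, with Bglap at 773, 4208, 77.6, 3638 and 539 in the libraries other than knockout 1, below osteoblast-like cells in 5 of 5 libraries by a mean of 1.64 on the log2 scale (exact p = 0.0625, adjusted p = 0.168). Osteoprogenitor-like cells held 271 ± 242 (SD, n = 6) of Bglap and 130 ± 70.6 of Bglap2. In knockouts 2 and 3 an unnamed stromal cluster led by Retnlg had a higher Bglap level than osteoblast-like cells, as given further on. This cluster held a mean of 7.25% of a library's Bglap UMIs, and at most 26.1%.

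Most Bglap UMIs of the osteoblast-like class came from few cells. The richest 10% of these cells held between 79.5% and 97.7% of the class's Bglap UMIs in each library, with a median of 0 to 4.5 UMIs per cell and a highest cell of 83 to 2572. Bglap2 was alike, at 77.3% to 97.6%. For Ibsp the richest 10% held 36.7% to 46.8%, for Alpl 24.1% to 32.0% and for Spp1 52.3% to 65.4%, with no overlap with Bglap. Dmp1 (52.2% to 91.8%) and Phex (50.8% to 82.5%) overlapped with Bglap. In the libraries with at least 20 UMIs of the gene, the range was 58.2% to 100% for Enpp1, 52.9% to 100% for Phospho1 and 100% throughout for Mepe. A gene found in under 10% of cells reaches 100% however its UMIs are spread among them. Phospho1 in knockout 3, for example, had 25 UMIs, with 43 cells in the richest 10%. The ranges of Enpp1, Phospho1 and Mepe are therefore not compared with that of Bglap. After thinning to 500 UMIs a Bglap UMI was expected in 5.26% to 42.1% of a library's osteoblast-like cells, against 0.133% to 6.73% of its neutrophil-like cells. The unthinned shares were 28.9% to 82.6% and 1.48% to 28.0%.

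**Figure D3:**
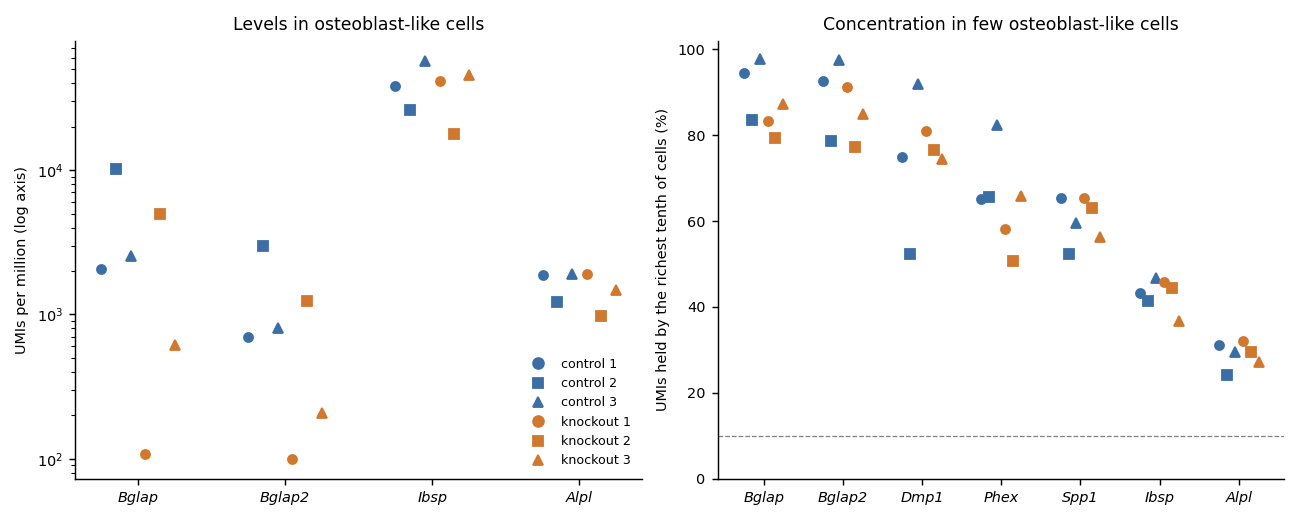
Left, levels of 4 genes in osteoblast-like cells (CPM, log axis), 1 point per library; Bglap and Bglap2 spread more widely over libraries than Ibsp and Alpl. Right, the share of each gene's UMIs held by the richest 10% of osteoblast-like cells (percent; the dashed line at 10 is an even spread); every library lies at 79.5% or more for Bglap and at 32.0% or less for Alpl.

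The Bglap level of neutrophil-like and osteoclast-like cells, which are not known to make osteocalcin, differed between libraries. Neutrophil-like cells held it at 10.8, 17.1 and 12.1 CPM in controls 1 to 3, 2.68 in knockout 1, 111 in knockout 2 and 20.3 in knockout 3. Knockout 2, with 1355 osteoblast-like cells, was the highest, and osteoclast-like cells of the same library held 106. HTC-like cells held 47.6, 16.7 and 198 in controls and 54.2, 150 and 194 in knockouts, above neutrophil-like cells in 5 of 6 libraries. In chondrocyte-like cells Bglap was at 44.8 ± 57.7 (SD, n = 6), at the median 1.61 times the neutrophil-like level.

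Alpl (ENSMUSG00000028766, chromosome 4, 137741733 to 137796384, minus strand) encodes tissue-nonspecific alkaline phosphatase. Its means in 4 classes lay close together, at 1558 ± 397 CPM in osteoblast-like cells (SD, n = 6), 1453 ± 659 in chondrocyte-like cells, 1407 ± 350 in HTC-like cells and 1326 ± 134 in osteoprogenitor-like cells. None of the 3 neighbouring pairs among them differed beyond the spread between libraries (adjusted p from 0.756 to 0.923). Osteocyte-like cells held 900, 92.3 and 1164 in controls and 535 and 701 in knockouts 2 and 3, below osteoprogenitor-like cells in 5 of 5 libraries by a mean of 1.29 on the log2 scale (exact p = 0.0625, adjusted p = 0.168). Dmp1 had the opposite order of means between osteoblast-like and osteocyte-like cells. Periosteal-like and fibroblast-like cells held Alpl at 727 ± 242 and 608 ± 404, and neutrophil-like cells at 85.9 ± 59.6.

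Enpp1 (ENSMUSG00000037370, chromosome 10, 24637914 to 24712159, minus strand), which makes the pyrophosphate that alkaline phosphatase removes, had another order. Its highest means were in the Chil1-led cluster, at 270 ± 106 CPM (SD, n = 6), and in fibroblast-like cells, at 200.6 ± 103. Within the Chil1-led cluster the controls lay between 337 and 388 and the knockouts between 134 and 225. This cluster was not tested between the genotype labels, so no share of all genes stands beside these values. HTC-like cells held 182, 36.7 and 137 in controls 1 to 3 and 275, 166 and 127 in knockouts 1 to 3, and chondrocyte-like cells 127 ± 30.7. Osteoblast-like cells were the lowest skeletal class, at 60.7 ± 44.9, yet above neutrophil-like cells (10.3 ± 6.83) in 6 of 6 libraries. The order from osteoprogenitor-like to osteocyte-like to osteoblast-like cells was not resolved (adjusted p = 0.597 and 0.768).

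Phospho1 (ENSMUSG00000050860, chromosome 11, 95824499 to 95832140), the phosphatase of matrix vesicles, was close to the limit of detection in every class. Osteoblast-like cells held 11.1, 4.46 and 10.0 CPM in controls and 9.51, 8.21 and 4.04 in knockouts, from 3 to 153 UMIs per library. Chondrocyte-like cells held 3.48, 0.756 and 1.87 in controls and 3.74, 4.34 and 1.61 in knockouts, and HTC-like cells had a mean of 2.01, with at most 6 Phospho1 UMIs in a library. An unobserved gene in HTC-like cells could lie at up to 0.392 CPM in knockout 3 and 0.721 in control 1, but at up to 16.5 in the library with the fewest cells (3 UMIs of the total; counting error only). In knockout 3 the level was 0.783 in HTC-like against 1.61 in chondrocyte-like cells, and in control 1 it was 1.44 against 3.48. Neutrophil-like cells had a mean of 3.40, from 1 to 6 UMIs per library, and against it the medians of 4 further classes were 0.11 times in macrophage-like, 0.056 in endothelial-like, 0.051 in osteoclast-like and 0 in lymphocyte-like cells.

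Dmp1, Ibsp, Mepe and Spp1 lie together in 238 kb of chromosome 5, all on the plus strand, yet their orders over classes differed. Over the 24 classes with enough cells, the Pearson correlation of mean log2 levels was 0.91 between Dmp1 and Mepe, 0.755 between Dmp1 and Ibsp, 0.59 between Dmp1 and Spp1 and 0.34 between Mepe and Spp1. Phex, on another chromosome, followed Dmp1 at 0.92, and Bglap followed Bglap2 at 0.99. Alpl and Ibsp had 0.93. These correlations describe classes that share libraries and depth, and carry no test.

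Among genes that are neither members nor on the list of 20 pathway genes described further on, those most like each member over the 24 classes were named by the same correlation. For Dmp1 they were Ptprz1 (0.97) and AI593442 (0.91), for Mepe Ccdc194 (0.98) and Dkk1 (0.98), and for Phex AC161119.1 (0.93) and Bmp8a (0.92). For Bglap and Bglap2 they were Car3 (0.94 and 0.96) and Ifitm5 (0.93 and 0.94), the latter a membrane protein gene of osteoblasts. For Ibsp they were Sp7 (0.96), a transcription factor of osteoblasts, and Tmie (0.95). For Alpl they were Sdk2 (0.97) and the parathyroid hormone receptor Pth1r (0.96), for Spp1 the collagenase Mmp13 (0.86) and Hpgd (0.86), for Enpp1 Fn1 (0.93) and Slc39a14 (0.92), and for Phospho1 Slc13a5 (0.91) and Entpd3 (0.87). Ptprz1, Dkk1, Ifitm5, Sp7, Pth1r, Mmp13 and Slc13a5 were also among the markers from which classes were named.

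The region before the start of transcription is shown for the osteoblast-led Bglap and for the osteocyte-led Dmp1 and Mepe, whose levels moved together over classes. The letters TGTGGT or, on the other strand, ACCACA, the core that Runx factors such as RUNX2 bind, were searched in the 250 bases before each RefSeq start of GRCm38.p6 (capitals mark matches). Promoters were found for 9 of the 10 genes, and 5 of their 12 starts, each of another gene, had a match. Of all 32850 promoters 14.05% had one.
Bglap, chr3:88384467-88384716, minus strand: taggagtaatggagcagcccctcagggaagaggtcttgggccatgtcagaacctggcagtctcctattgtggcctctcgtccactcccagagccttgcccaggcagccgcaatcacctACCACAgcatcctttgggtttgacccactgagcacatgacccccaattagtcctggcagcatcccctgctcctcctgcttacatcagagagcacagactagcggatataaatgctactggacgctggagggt
Dmp1, chr5:104202367-104202616, plus strand: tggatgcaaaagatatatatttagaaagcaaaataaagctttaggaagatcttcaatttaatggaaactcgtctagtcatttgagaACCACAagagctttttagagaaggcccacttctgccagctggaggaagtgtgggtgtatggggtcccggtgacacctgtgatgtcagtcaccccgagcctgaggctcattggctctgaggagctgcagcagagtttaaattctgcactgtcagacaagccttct
Mepe, chr5:104325079-104325328, plus strand: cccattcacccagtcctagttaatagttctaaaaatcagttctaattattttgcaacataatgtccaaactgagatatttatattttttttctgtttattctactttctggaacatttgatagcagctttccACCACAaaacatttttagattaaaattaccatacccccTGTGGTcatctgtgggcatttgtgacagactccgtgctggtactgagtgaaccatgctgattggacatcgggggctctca
Counted from the start, the match began at -132 in Bglap and at -164 before the second start of Dmp1, and Mepe had matches at -118 and -80. Spp1 (first start) and Enpp1 had a match too, and Ibsp, Phex, Alpl and Phospho1 had none. Every region printed here holds a match. The regions before Phex, which is also osteocyte-led and followed Dmp1 over classes, and before the first start of Dmp1 hold none and are not printed. A match is a run of letters and not a site of binding, and whether it bears on the levels was not tested.

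Between the genotype labels, 0 members were called in any of the 6 classes tested with edgeR's quasi-likelihood test at an adjusted p of 0.05. The background was the same: 0 genes of 8675 in HTC-like, 14137 in chondrocyte-like, 11288 in osteoprogenitor-like, 10190 in osteoblast-like, 7910 in osteocyte-like and 10945 in osteoclast-like cells, a share of 0% in each. At an unadjusted p under 0.05 the members counted 2 of 7 tested in HTC-like (background 1.22%), 1 of 9 in chondrocyte-like (1.79%), 0 of 8 in osteoprogenitor-like (4.09%), 0 of 10 in osteoblast-like (2.76%), 2 of 10 in osteocyte-like (7.89%) and 3 of 7 in osteoclast-like cells (4.43%). The levels of the groups did not overlap for 1 member in HTC-like, 2 in chondrocyte-like and 2 in osteocyte-like cells, whose backgrounds stand beside their values, and for 0 members in osteoprogenitor-like (background 8.47%), osteoblast-like (6.92%) and osteoclast-like cells (8.02%). DESeq2 called 3 genes in osteoprogenitor-like cells and 1 in osteocyte-like cells, none of them a member. A p above the threshold does not show that the groups were alike, and the labels do not say whether each library is 1 mouse.

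In osteoblast-like cells the members' log2 fold changes (knockout minus control) had a median of -0.17, and that of all genes was -0.0032. Bglap had -1.23 (SE 1.18, adjusted p = 1.0) and Bglap2 -1.39 (SE 0.96, adjusted p = 1.0). For Bglap plus Bglap2 the groups were at 6429 ± 5865 (SD, n = 3) and 2417 ± 3306 CPM and overlapped. Without knockout 2 the Bglap value was -3.75, and without control 2 it was -0.09. Mepe had 1.94 (SE 0.93, adjusted p = 1.0), from 0 to 15.0 CPM in controls and 6.34 to 50.2 in knockouts. In knockout 3, the highest library, 1 of 430 osteoblast-like cells held 182 of the 310 Mepe UMIs. In the edgeR fit without a filter on low counts the adjusted p of Mepe was 4.34e-04. That fit also called genes that are not members, as counted further on, and its calls are not read as a result about the members. The other 7 lay between -0.30 (Phospho1) and 0.31 (Phex), with Spp1 at 0.02, Ibsp at -0.23, Alpl at -0.20, Dmp1 at -0.14 and Enpp1 at -0.11. Their SEs ran from 0.32 to 0.68.

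In HTC-like cells 7 members passed the filter on low counts. Spp1 had a log2 fold change of -0.15 (SE 0.92), and 2.54 without control 3, whose 15 HTC-like cells gave the level of 83141. Ibsp had -0.73 (SE 0.63), Alpl -0.37 (SE 0.43), Enpp1 0.62 (SE 0.51) and Bglap 0.70 (SE 0.71). Phex was at 109, 117 and 104 CPM in controls and at 70.3, 9.98 and 46.7 in knockouts, groups that do not overlap (log2 fold change -1.27, SE 0.48, adjusted p = 0.999, with 0% of all genes called). The groups did not overlap in 5.35% of the 8675 genes tested in these cells, and in 1 of the 7 members. The value in knockout 2 rests on 3 UMIs, and without removal of doublets the fold change was 0.09. Dmp1 had 2.36 (SE 0.89), from 5.29, 3.34 and 16.5 in controls against 4.39, 69.9 and 33.5, and the highest library rested on 21 UMIs. Without integration the Dmp1 value was -0.46.

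In osteocyte-like cells the Dmp1 levels (3025, 5457 and 2515 against 1413 and 1781) and the Phex levels (1785, 3455 and 1119 against 802 and 820) did not overlap between the groups. The log2 fold changes were -1.08 for Dmp1 (SE 0.44, adjusted p = 0.613) and -1.26 for Phex (SE 0.50, adjusted p = 0.613), 0% of all genes were called, and 624 of the 7910 genes had an unadjusted p under 0.05. The groups did not overlap in 25.4% of these genes, and in 2 of the 10 members. Only 2 knockout-labelled libraries entered, 1 of which was knockout 3. Over 12 alternatives with a value, Dmp1 stayed between -1.30 and -0.65 and Phex between -1.58 and -0.69, with adjusted p of 0.396 or more.

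In osteoclast-like cells all 7 members tested had a positive log2 fold change, with a median log2 fold change of 1.36, against -0.01 for all genes. Bglap had 3.13 (SE 0.93, adjusted p = 0.991), from 9.87, 8.14 and 2.81 CPM in controls against 1.83, 106 and 19.3. Those levels moved with the neutrophil-like level of the same libraries, which was 10.8, 17.1, 12.1, 2.68, 111 and 20.3. The part of free RNA in the difference was not tested, and without knockout 2 the fold change was 1.25. Without a filter on low counts edgeR called Bglap, Bglap2, Alpl, Dmp1 and Ibsp in these cells. Most genes called by that fit were not members, as counted further on, and these calls are not read as a result about the members.

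In chondrocyte-like cells 8 of 9 members had a positive log2 fold change, with a median of 0.87, against -0.03 for all genes, and knockout 2 entered with 18 cells. Dmp1 was at 7.38, 1.40 and 7.06 CPM in controls and at 8.21, 8.67 and 18.0 in knockouts, and its difference was 1.37 on the log2 scale (SE 0.57, adjusted p = 1.0). Enpp1 was at 151, 152 and 154 in controls and at 124, 104 and 79.6 in knockouts, with -0.52 (SE 0.27, adjusted p = 1.0). Dmp1 and Enpp1 were the 2 of 9 members whose groups did not overlap in chondrocyte-like cells, against 7.43% of the 14137 genes tested. Neutrophil-like cells held Dmp1 at 2.40 ± 1.06 CPM (SD, n = 3) in controls and 7.26 ± 3.76 in knockouts. The control values rest on few UMIs. Neutrophil-like cells were not tested between the genotype labels, so no share of all genes stands beside these values, and they are not read as a difference. The part of free RNA in the Dmp1 difference of chondrocyte-like cells was not tested. Bglap and Bglap2 were called by edgeR without a filter on low counts, at 2.08 (adjusted p = 3.02e-06) and 1.72 (adjusted p = 0.00173). Their SEs in that fit were 0.34 and 0.36. With the filter they had 2.09 (SE 0.99) and 1.70 (SE 1.02), and neither was called. Most genes called without the filter were not members, as counted further on. These calls are not read as a result about the members. Bglap was at 4.36 to 31.3 CPM in controls and 5.21 to 154 in knockouts. Neutrophil-like cells held it at 10.8 to 17.1 and at 2.68 to 111, and the part of free RNA was not tested.

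In osteoprogenitor-like cells 6 of 8 members had a positive log2 fold change, with a median of 0.28, against -9.1e-04 for all genes. Ibsp had 0.95 (SE 0.42, adjusted p = 1.0). The difference of the genotype effect between osteoblast-like and HTC-like cells, tested with the library as a block, passed the threshold in 0 of 10694 genes (195 at an unadjusted p under 0.05). Bglap2 had the lowest p of the members, with a difference of -3.11 (SE 0.82, adjusted p = 1.0), followed by Phex at 1.52 (SE 0.57), Dmp1 at -2.47 (SE 0.93) and Bglap at -3.29 (SE 1.33).

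**Figure D4:**
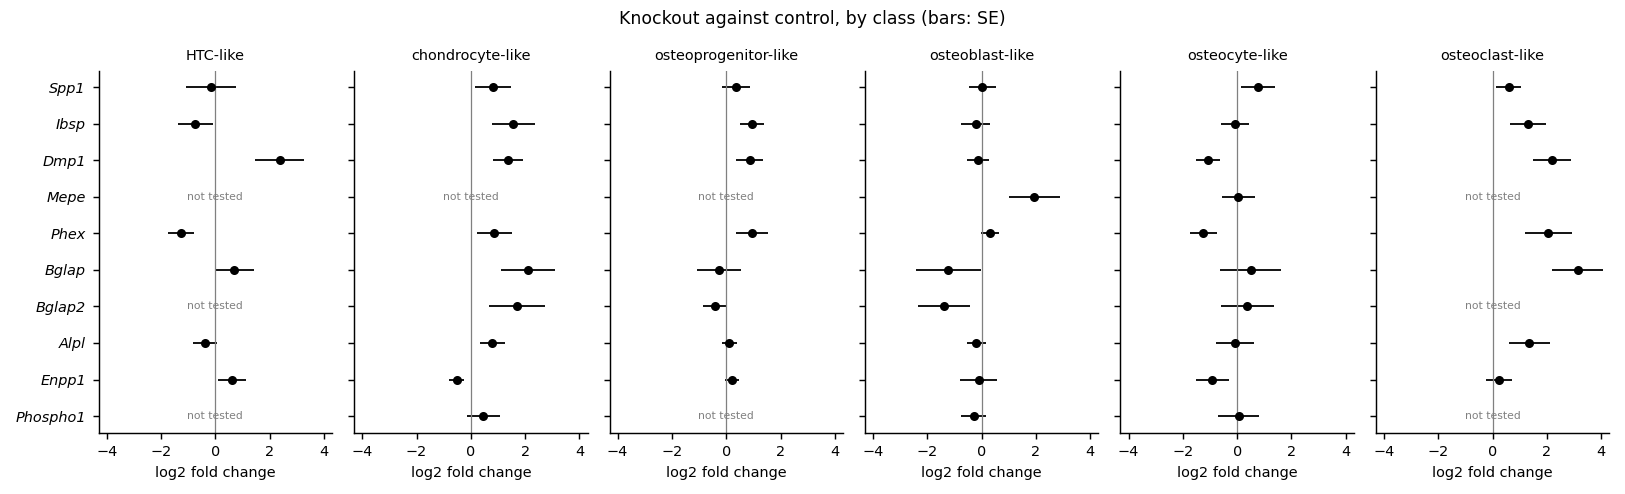
Each panel is a cell class and each point the log2 fold change of a member, knockout minus control, with its SE as the bar; the grey line is no change. No member passed the adjusted threshold in any class. The widest bar is that of Bglap in osteoblast-like cells (SE 1.18), and all points of osteoclast-like cells lie to the right of 0.

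A list of 20 further genes of mineralization was fixed for the same tests. Between 12 and 16 of them could be tested per class and 0 were called in any class. The largest log2 fold changes in osteoblast-like cells were -1.01 for Bglap3 (SE 1.04), -0.82 for the inhibitor Mgp (SE 0.92) and -0.74 for Itgb3 (SE 0.37), and in HTC-like cells 1.06 for the kinase Fam20c (SE 0.58), 0.96 for Mgp (SE 0.67) and -0.59 for Vkorc1 (SE 0.41), with an adjusted p of 0.999 or more. Across classes, Smpd3, a sphingomyelinase of matrix mineralization, was at means of 963 CPM in HTC-like, 883 in chondrocyte-like and 836 in osteoblast-like cells, against 70.7 in osteoprogenitor-like cells. Mgp was at 13952 in HTC-like and 9761 in chondrocyte-like cells, against 579 in osteoblast-like and 324 in osteocyte-like cells. The pyrophosphate transporter gene Ank was at 134 in HTC-like and 81.5 in osteoblast-like cells. Galnt3, which protects FGF23 from cleavage, had its highest mean in osteocyte-like cells, at 98.9, while Fgf23 and Dspp had no UMI in osteoblast-like or osteocyte-like cells.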

How the data were processed

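The authors deposited UMI counts per gene and cell for 6 libraries (10x 3′ chemistry, GRCm38), made with Cell Ranger 6.1.1 for replicate 1 of both groups and 6.1.2 for the others per the file headers. The 52081 genes listed in all libraries were used. Cells with under 500 UMIs, under 200 genes or over 20% mitochondrial UMIs were removed, as were doublets (Scrublet, with 0.8% of cells per 1000 cells), which left 41705 of 46944 barcodes. Libraries were integrated with Seurat 5.3.0 and clustered with scanpy 1.11.5 at a resolution of 0.8, without the 10 genes and the 20 pathway genes. A cluster was named from at least 3 markers found in at least 25% of its cells and at 2-fold or more, thresholds that were set after the data had been seen. Names rebuilt in this way may differ from those of the study.

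UMIs were summed per library and class (levels in CPM, scaled to 1000000 UMIs), and groups were compared with edgeR 4.0.16 (TMM, filterByExpr, quasi-likelihood test, Benjamini-Hochberg over all genes), with DESeq2 1.42.0 as an alternative. The SE of a fold change was taken from its F statistic. Classes were compared within libraries by exact permutation of signs on log2(CPM + 10). The edgeR fit was tested on simulated counts with known changes, for HTC-like and osteoblast-like cells only. Changes of 1 on the log2 scale were called in 3.39% of changed genes in HTC-like and 4.69% in osteoblast-like cells. For changes of 2 the shares were 57.6% and 76.3%, and for changes of 3 they were 96.4% and 98.2%. Most changes of 1 would therefore be missed. Intervals and floors cover counting error only. The labels do not say that libraries of a group come from separate animals, so p-values measure the spread between these libraries, which may be technical. The members and gene lists were chosen with earlier results of these data known. All 10 members were named, with the 2 most correlated genes for each (at least 50 CPM in a class) and, from the 20 pathway genes, those called or else the 3 with the largest fold change in osteoblast-like and in HTC-like cells; other values of the 20 were chosen after they were seen.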

Additional observations from a re-analysis of the deposited data

How the results depend on the processing

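The orders of levels and the fold changes were computed again with a stricter cell filter (1000 genes or more, mitochondrial UMIs of 10% or less), without removal of doublets, at a resolution of 1.2, without integration, with DESeq2, without a filter on low counts, with a replicate block, without replicate 3 of both groups and without each library. Leaving out each library for the difference between classes and for Piezo1, and leaving out replicate 1 of both groups, were chosen after seeing the data. For osteocyte-like cells the fit without replicate 3 of both groups was not run.

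Without a filter on low counts the genes called numbered 27 in HTC-like, 64 in chondrocyte-like, 110 in osteoprogenitor-like, 37 in osteoblast-like, 60 in osteocyte-like and 71 in osteoclast-like cells, against 0 with it; the cause was not tested. Members made up 2 of the 64 in chondrocyte-like cells, 1 of the 37 in osteoblast-like cells (Mepe) and 5 of the 71 in osteoclast-like cells. The number of genes tested without the filter is not given here, so these counts have no share over all genes beside them. They are not read as a result about the members. DESeq2 called 3 genes in osteoprogenitor-like cells (Pi15, Ebf3 and Aoc3) and 1 in osteocyte-like cells (Lars2). Leaving out a library gave 0 to 1 called genes in chondrocyte-like cells (Igha, without knockout 2), 0 to 21 in osteocyte-like cells (7 without knockout 2 and 21 without knockout 3, where 1 knockout library is assumed to vary like the controls) and 0 to 1 for the difference between osteoblast-like and HTC-like effects (Mmp3, without control 2 or without knockout 2). The Piezo1 log2 fold change ranged from -0.12 to 0.75. Without replicate 1 of both groups, 1 gene was called in osteoprogenitor-like cells (Cxcl14) and 5 in osteoclast-like cells (Col1a2, Sparc, Rps3a3, mt-Rnr1 and mt-Rnr2), none of them a member, and 0 in the other classes fitted; the log2 fold changes of Spp1 and Dmp1 in osteoblast-like cells turned to -0.15 and 0.24.

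In the replicate block fit, 1 gene was called in osteocyte-like cells (Rps3a3), and the Spp1 log2 fold change in HTC-like cells was 1.15. The labels do not say that a number marks a batch. Replicate 1 of both groups shared a Cell Ranger version and had the lowest median UMIs per barcode (2554 and 2728.5). Within HTC-like, chondrocyte-like and osteoblast-like cells its libraries had the highest medians instead. In HTC-like cells these were 42502 and 43713, against 14346 to 20476 in the other libraries. In osteoclast-like cells knockout 1 had the lowest, at 2480. Replicate 3 of both groups shared a list of 55357 genes, against 55450 in the other libraries. For replicate 1 the correlation of the deviations of both libraries was over 0.1 in 5 of 5 classes (0.20 to 0.46). This held in 1 of 5 for replicate 2 (-0.12 to 0.15) and 0 of 5 for replicate 3 (-0.089 to 0.096), so such a correlation was not seen for every number. The block changed no other count of called genes.

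Signs of log2 fold changes that turned were all of values that had not passed the test, and the cause was not tested. In HTC-like cells, these were Phex at 0.088, Alpl at 0.33 and Enpp1 at -0.71 without removal of doublets, Dmp1 at -0.46 without integration, and Spp1 at 2.74 and Ibsp at 0.43 without replicate 3. In osteoblast-like cells, Enpp1 was at 0.11 without removal of doublets. At a resolution of 1.2, Ibsp was at 0.27, Dmp1 at 0.53, Bglap at 0.085, Alpl at 0.20 and Phospho1 at 0.45. Without integration, Spp1 was at -0.40, Ibsp at 0.67 and Phex at -0.53, and without replicate 3, Spp1 was at -0.39 and Phospho1 at 0.15. Over the libraries left out, HTC-like Spp1 ran from -0.75 to 2.54 and Ibsp from -1.02 to 0.12. Osteoblast-like Spp1 ran from -0.39 to 0.35, Dmp1 from -0.47 to 0.14, Enpp1 from -0.94 to 0.53, Ibsp from -0.52 to 0.19 and Phospho1 from -0.63 to 0.0085.

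The log2 difference of a member's top class over the next moved to 1.26 (resolution 1.2) and 1.48 (no integration) for Ibsp and, without integration, to 3.75 for Bglap and 3.62 for Bglap2. It turned for Alpl without integration (-0.33). For Phospho1 it was 0.46 with a pseudocount of 1, -0.20 at a resolution of 1.2 and -0.070 without integration, and -0.028 to 0.15 over the libraries left out. For Enpp1 that range was -0.090 to 0.49. In HTC-like cells Phospho1 had at most 6 UMIs in a library, and Mepe 2.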

Other observations

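Clusters that stayed unnamed also held the 10 genes. A cluster of 479 stromal cells led by Retnlg, a neutrophil gene, had Bglap at 14.2, 1985 and 6.44 CPM in controls 1 to 3 and at 0.784, 5768 and 1481 in knockouts 1 to 3, and Ibsp at 1896 to 23765. A cluster of 3918 stromal cells led by Lyz2, with a median of 874 UMIs per cell, held Ibsp at 938 to 11295 and Bglap at 21.6 to 1579. Bglap was highest in knockout 2 in both. In knockouts 2 and 3 the Retnlg-led cluster had a higher Bglap level than osteoblast-like cells of the same library.

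Over all cells of a library, Bglap was at 133, 170 and 58.3 CPM in controls 1 to 3 and at 10.4, 1394 and 149 in knockouts 1 to 3. Knockout 2, the highest, was also the library with the most osteoblast-like cells, and a level over all cells does not tell more cells from more RNA per cell.

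The number of Bglap2 UMIs per Bglap UMI was 0.310 to 1.43 in osteoprogenitor-like cells, with the highest values in control 1 (1.05) and knockout 1 (1.43), and 0.256 to 0.474 in osteocyte-like cells. These ratios rest on genes that share part of their sequence, and the highest on 69 Bglap UMIs.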
